A study of Mus musculus and Homo sapiens with 33 samples.

Results

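Cytokinesis divides the cell body at the end of mitosis. The genes described here are 36 genes for its contractile ring, its septin filaments and the ESCRT machinery that cuts the last bridge between the daughter cells. They were chosen by gene symbol, from their known roles, with earlier results of these data known. Of the 36, 35 had a line among the 38924 Ensembl genes of the count matrix, 27 matched by symbol and 8 by Ensembl ID, because the matrix spells septin symbols as dates and lists Diaph3 as Diap3. Chmp1b is not analysed here. Chmp1a is listed with 0 reads in all 6 libraries, and the remaining 34 genes passed the filter on low counts and were tested.

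The RNA came from KPL cells, mouse cells known as a lung adenocarcinoma line, although the labels give no tissue. They were grown with ethanol (control, 3 libraries) or with 4-hydroxytamoxifen (4-OHT, 3 libraries) for 72 hours at a dose that the labels write as 10 nm. Per the labels, 4-OHT deletes Lin9, which encodes a subunit of the MuvB complex, and the alleles of the line are not spelled out there. Nothing in the labels says that replicates came from separate cultures. The p-values therefore measure only how far these libraries spread, and that spread may be technical. Because 4-OHT was given only to the Lin9-deleted cells, an effect of the drug itself and an effect of Lin9 loss cannot be told apart. The ChIP-seq samples of the series, 27 of 33, were not analysed here.

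Libraries held 5859826 to 5913942 counted reads. Lin9 was at 26.7, 21.3 and 27.3 CPM (counts scaled to the size of each library) in the control libraries and at 18.3, 18.1 and 17.1 CPM in the 4-OHT libraries, which is -0.49 ± 0.11 on the log2 scale (estimate ± SE; adjusted p = 0.0011 by edgeR). The count spans the whole gene, so it does not measure how many cells lost the deleted part. All 5 epithelial markers had reads, at a summed 5456 to 5514 CPM in control and 5462 to 5601 after 4-OHT, mostly from the keratins Krt8, Krt18 and Krt19. Within that sum Epcam fell by 0.38 (SE 0.04) and Cdh1 by 0.14 (SE 0.03) on the log2 scale (adjusted p = 4.4e-12 and 0.0010 by edgeR), and their part in the results below was not tested. Of 4 alveolar and lung markers, Sftpc and Napsa were at 0. The sum of all 4 was 5.28 to 8.02 in control and 4.40 to 5.25 after 4-OHT. It came almost wholly from Nkx2-1, with 37, 31 and 46 reads in control and 28, 25 and 31 after 4-OHT. The summed markers of fibroblasts (5.58 to 9.71 over all libraries), endothelium (2.21 to 4.06) and leukocytes (1.19 to 4.77) were low in both groups.

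Division of the cell body starts when the central spindle recruits the exchange factor ECT2, which loads the small GTPase RhoA with GTP beneath the membrane. RhoA then turns on formins, which build actin filaments, and kinases that activate non-muscle myosin II, while anillin and septins tie the ring to the membrane. Once the ring has closed onto the midbody, CEP55 brings in TSG101 and ALIX, which recruit ESCRT-III filaments, and the VPS4 enzymes remodel these filaments until the bridge is severed. B-MYB and MuvB are known to activate late cell cycle genes, in many cases through a promoter element called the cell cycle genes homology region (CHR).

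After 4-OHT, 5 of the 34 members tested were lower, namely Racgap1, Cep55, Cit, Ect2 and Anln, and 3 were higher, namely Sept6, Chmp2b and Chmp4c (adjusted p under 0.05 by the edgeR quasi-likelihood test). Across all 13355 genes tested, 5.17% were called lower, 4.61% higher and 9.79% in either direction. The libraries of the groups did not overlap for 5 of the 34 members downward and 7 upward, where 12.2% and 12.1% of all genes were apart. All 5 lower members belong to the 6 genes grouped here as RhoA activation and ring scaffold. None of the 28 members outside it was called lower by edgeR, at an adjusted p or at an unadjusted p under 0.05, which 10.5% of all genes passed downward. Members and lists were chosen with earlier results of these data known, and Cep55, a midbody gene, was placed in this group. The split is therefore a description and not a test. The 26 uncalled members had log2 fold changes between -0.07 and 0.17, and their 95% intervals lay within -0.17 and 0.34. With DESeq2 2 members were lower, Racgap1 and Cep55, and 0 were higher, where it called 2.87% of all genes lower and 1.43% higher. With unadjusted p under 0.05 as the threshold, DESeq2 had 3 of the 34 members higher, and 5.24% of all 12207 genes to which it gave an adjusted p.

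**Figure D1:**
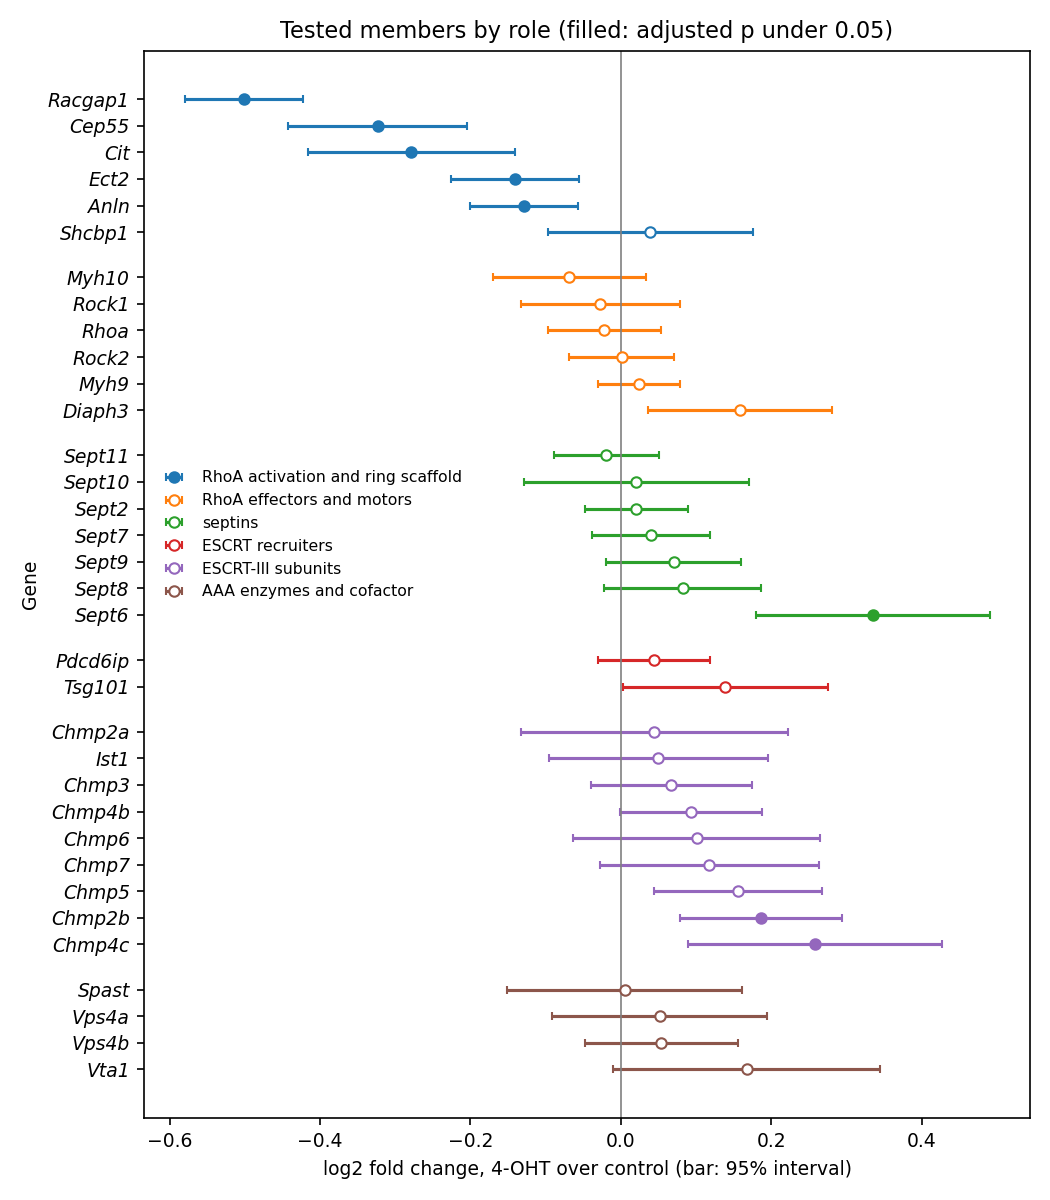
Log2 fold change of 4-OHT over control (x axis) for the 34 tested members (y axis), coloured by role, with 95% intervals and filled points for an edgeR adjusted p under 0.05. The 5 filled points left of 0 are all in the ring scaffold group, where the midbody gene Cep55 was placed. The 3 filled points right of 0 are Sept6, Chmp2b and Chmp4c.

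The promoters of the ring scaffold genes are shown first, since 4 of the 5 lower members hold a CHR. The sequences come from the RefSeq promoter table of GRCm38.p6, which gives 250 bases before to 50 bases after a gene's start, and 29 members had a window there. Shcbp1, Rock1, Sept6, Chmp4c, Chmp6, Chmp7 and Chmp1b had no window. Each stretch below is 30 bases on the gene's own strand. Capitals mark the CHR (TTTGAA, or TTCAAA on the other strand) and, where it falls inside the stretch, the CCAAT box bound by NF-Y (CCAAT or ATTGG).
Racgap1: gtgATTGGctggtgcgtgatTTTGAAccgg
Cep55: cccgccctacagccgcgggaTTCAAActcc
Anln: cggggcgctgaaaTTCAAAtTTTGAAcggc
Ect2, upstream match: cgctccagccgtttaccggaTTTGAAacac
Ect2, downstream match: agagagagcgactggattttTTTGAAtcgg
Chmp2b: gcagggaagagcgggcagccTTTGAAgtga
Kif23: ggcggccgctgATTGGcctgTTTGAAatgc

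The Racgap1 stretch lies at chr15:99651642-99651671 on the minus strand, with the CHR starting at base 6 after the annotated start site and an inverted CCAAT box just before it. Kif23 (chr9:61946788-61946817, minus strand), whose product pairs with that of Racgap1 and which is not one of the 36 genes, is shown for comparison, with the same pair of letters around its start. Cep55 (chr19:38054988-38055017, plus strand) carries the reversed letters. Anln (chr9:22389169-22389198, minus strand) carries both orientations side by side. Ect2 holds 1 match upstream (chr3:27153983-27154012) and 1 downstream of its start (chr3:27153830-27153859, both on the minus strand). Chmp2b, which was higher after 4-OHT, also holds the letters, at chr16:65562806-65562835 on the minus strand.

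TTTGAA on either strand was present in 4 of the 5 lower members, absent from Cit, and present in 3 of the 23 members that were not called or, for Chmp1a, not tested (Sept7, Sept11 and Pdcd6ip, 13.0%). Of the 27025 genes with a promoter in RefSeq, 20.2% held it. Among the tested genes with a window it was found in 26.6% of 467 lower genes, 9.86% of 426 higher genes and 13.8% of 8126 uncalled genes. In the central spindle and passenger list, which shares no gene with the 36, 7 of 8 genes with a window held it. Other motifs were searched on both strands too. CCAAT was in 2 of the 5 lower members (41.1% of all genes), AACGG, a MYB core, in 4 (19.6%) and AACTG in 1 (48.2%), and GGAATG, a TEAD core, in 2 (16.6%). TTCGAA, TTTGGCGC and TTTCCCGC were in 0 of the 5 (1.80%, 0.585% and 1.24% of all genes). These are letter matches. Binding there was not examined, because the ChIP-seq samples of the series were not analysed here.

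Racgap1 encodes the GTPase-activating subunit of centralspindlin, the complex that positions ECT2 on the central spindle. It was at 257, 266 and 266 CPM in control and at 184, 188 and 186 CPM after 4-OHT. The 4-OHT libraries all sat far below control, at 70.7% of its level (log2 fold change -0.50, SE 0.04, adjusted p = 1.4e-18). In bulk RNA such as this, fewer cells of a type, here dividing cells, and less RNA per cell cannot be told apart. Its partner in centralspindlin, the kinesin gene Kif23, was at 210.3 ± 6.30 CPM in control and fell to 127 ± 2.51 CPM (mean ± SD, n = 3 libraries a group; -0.73 ± 0.04 SE on the log2 scale, adjusted p = 3.7e-25 by edgeR).

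Ect2 itself, the RhoA exchange factor, was at 200.3, 191 and 199 CPM in control and at 181, 169 and 185 CPM after 4-OHT. The groups did not overlap, as for 12.2% of all genes downward. The fall was small, to 90.7% of control (log2 fold change -0.14, SE 0.04, adjusted p = 0.020). Ect2 missed the threshold once control replicate 1, control replicate 3 or 4-OHT replicate 2 was left out (0.128, 0.094 and 0.209) and in DESeq2 (adjusted p = 0.184).

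Anln encodes anillin, the scaffold that links RhoA, actin, myosin and septins at the ring. It was at 320.4, 319 and 326 CPM in control and at 302, 286 and 294 CPM after 4-OHT. Again the groups did not overlap and the size was small, 91.4% of control (log2 fold change -0.13, SE 0.04, adjusted p = 0.0099). Leaving out control replicate 3 or 4-OHT replicate 2 ended the Anln call (adjusted p = 0.062 and 0.097) and in DESeq2 (0.079). In the RefSeq annotation Anln shares 653 bases of its span with 9530077C05Rik, and the files do not say how reads there were assigned.

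Cit encodes citron kinase, which holds the midbody ring together late in cytokinesis. It was at 61.4, 61.7 and 66.5 CPM in control and at 56.1, 52.1 and 48.0 CPM after 4-OHT. Every 4-OHT value lay below every control value, at 82.4% of the control level (log2 fold change -0.28, SE 0.07, adjusted p = 0.0027). It kept its call without any 1 library, with adjusted p up to 0.044, and lost it in DESeq2 (0.084).

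Cep55, the midbody protein gene that hands over to the ESCRT machinery, was at 85.9, 91.7 and 83.6 CPM in control and at 70.9, 70.2 and 67.7 CPM after 4-OHT. It stood at 79.9% of control (log2 fold change -0.32, SE 0.06, adjusted p = 2.8e-05), and with Racgap1 it was called in each alternative tried. Shcbp1, whose product binds centralspindlin at the midbody, was the ring scaffold gene without a call, with 54.6 to 64.7 CPM in control and 56.8 to 64.8 CPM after 4-OHT, and these ranges overlap (log2 fold change 0.04, 95% interval -0.10 to 0.18). The 6 ring scaffold genes had a median log2 fold change of -0.21, against 0.0005 over all genes tested.

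**Figure D2:**
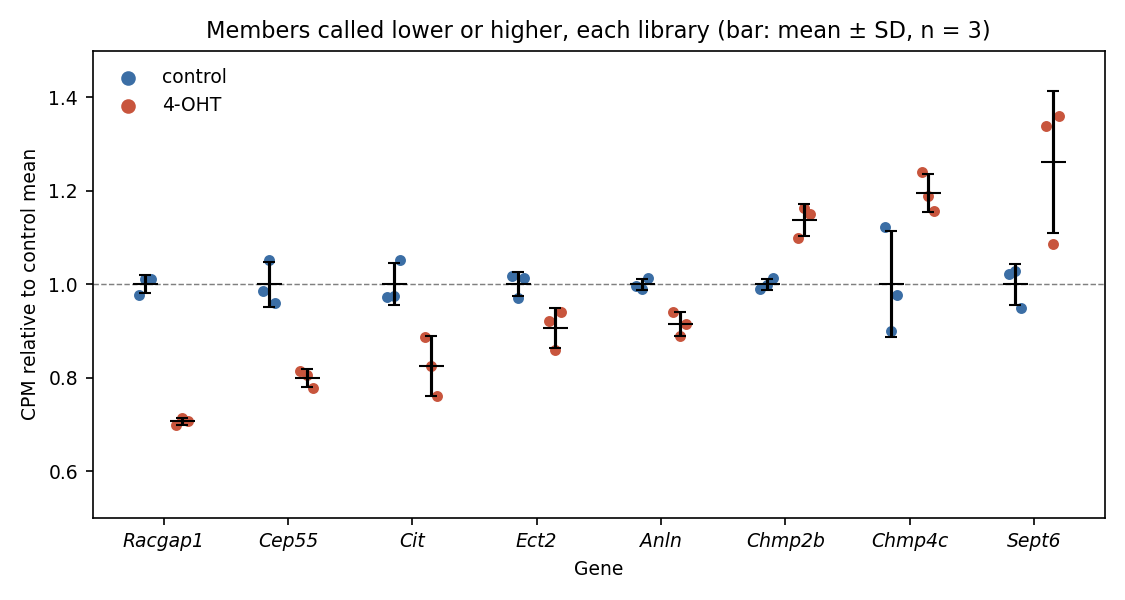
CPM of each library divided by the control mean of the gene (y axis) for the 8 called members (x axis), in control (blue) and 4-OHT (red) libraries, with the mean ± SD, n = 3. The axis does not start at 0. Racgap1 shows the widest gap relative to its spread, and the lowest 4-OHT library of Sept6 sits close to control.

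Genes for the GTPase, kinases, formin and motors that the scaffold directs showed no call. Of these 6 genes, 0 passed the edgeR test, which 9.79% of all genes passed. Of the 6, 1, Diaph3, had an unadjusted p under 0.05 by edgeR, which 10.5% of all genes passed downward and 10.7% upward. In DESeq2 0 of the 6 passed the adjusted threshold, where 2.87% of all genes were lower and 1.43% higher. Rhoa, the GTPase gene itself, was at 303, 280.1 and 285 CPM in control and at 296, 274 and 285 CPM after 4-OHT (log2 fold change -0.02, 95% interval -0.10 to 0.05). Its ranges overlapped between 280.1 and 296 CPM, and the lower bound of the 95% interval was -0.10 on the log2 scale.

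The RhoA-activated kinase genes were as close to 0, with log2 fold changes of -0.03 for Rock1 (95% interval -0.13 to 0.08) and 0.001 for Rock2 (-0.07 to 0.07). Myh9, which encodes the heavy chain of non-muscle myosin IIA, was at 1981 to 1998 CPM in control and 1965 to 2091 CPM after 4-OHT (log2 fold change 0.02, 95% interval -0.03 to 0.08), and Myh10, that of myosin IIB, at 120.0 to 122 and 108 to 123 CPM (-0.07, -0.17 to 0.03). The Myh10 value was -0.12 without 4-OHT replicate 2 and -0.02 without 4-OHT replicate 3. Diaph3, a formin gene that assembles unbranched actin, was at 66.3 to 78.0 CPM in control and 76.6 to 83.3 CPM after 4-OHT (log2 fold change 0.16, SE 0.06, adjusted p = 0.094). The ranges overlapped through control replicate 3, and without that library the adjusted p was 0.031.

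Septins form hetero-oligomeric filaments, built around Sept2, Sept7 and Sept9 together with a member of the interchangeable group that holds Sept6, Sept8, Sept10 and Sept11. Of the 7 septins, 1 was higher and 0 lower, where 4.61% and 5.17% of all genes were. At an unadjusted p under 0.05 by edgeR 0 were lower, where 10.5% of all genes were. Sept6 was at 43.0, 43.3 and 39.9 CPM in control and at 56.3, 45.7 and 57.2 CPM after 4-OHT. The groups did not overlap, although 4-OHT replicate 2 stood much nearer to control than the other 4-OHT libraries. The level was 126% of control (log2 fold change 0.34, SE 0.08, adjusted p = 0.0012). The call was kept without any 1 library, with adjusted p up to 0.023, and lost in DESeq2 (0.071).

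The core septins were not called. Sept2 was at 364 to 379 CPM in control and 371 to 385 CPM after 4-OHT (log2 fold change 0.02, 95% interval -0.05 to 0.09), and Sept7 at 219 to 232 and 228 to 239 CPM (0.04, -0.04 to 0.12). Sept9 had a log2 fold change of 0.07 (95% interval -0.02 to 0.16), and the others of the Sept6 group had 0.08 (Sept8), 0.02 (Sept10) and -0.02 (Sept11), all uncalled with overlapping libraries.

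Of the members that are ESCRT recruiters, ESCRT-III subunits or AAA enzymes with their cofactor, 15 were tested. Each had a log2 fold change above 0, where 50.2% of all genes tested did. Cep55, which hands over to this machinery, was grouped with the ring scaffold and is not among the 15 (log2 fold change -0.32). The count above 0 was chosen after the values were seen. It was also 15 with other scalings, filters and tests, and 13 to 15 when single libraries were left out (13 without control replicate 3 and without 4-OHT replicate 3). The median was 0.09. Values above 0 were also found for 6 of the 7 septins. In lists described below they were found for 12 of 14 other genes of RhoA control and actomyosin (median 0.08). They were found for 8 of 12 upstream ESCRT genes and 5 of 8 ESCRT-III partners and abscission timing genes (median 0.02 in each). Of the 15, edgeR called 2 higher and 0 lower, where it called 4.61% and 5.17% of all genes. DESeq2 called 0 of the 15. At an unadjusted p under 0.05 edgeR had 4 of the 15 higher and 0 lower, where 10.7% of all genes passed upward. The control and 4-OHT libraries did not overlap for 6 of them, all upward, where 12.1% of all genes were apart in that direction.

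The called ESCRT genes were both ESCRT-III subunits. Chmp2b, a late filament subunit that draws in VPS4, was at 89.9, 90.7 and 92.0 CPM in control and at 99.9, 106 and 105 CPM after 4-OHT. All 4-OHT libraries lay above control, at 114% of its level (log2 fold change 0.19, SE 0.05, adjusted p = 0.014). Chmp2b missed the threshold once control replicate 1 or 4-OHT replicate 2 was left out (0.069 and 0.077) and in DESeq2 (0.203).

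Chmp4c encodes the filament subunit through which Aurora B delays abscission when chromatin remains in the bridge. It was at 39.0, 31.3 and 33.9 CPM in control and at 43.1, 41.3 and 40.2 CPM after 4-OHT. The groups were apart by a narrow margin, because control replicate 1 came close to the lowest 4-OHT value (log2 fold change 0.26, SE 0.08, adjusted p = 0.035). The Chmp4c call was lost without any 1 of 4 libraries, control replicates 2 and 3 and 4-OHT replicates 1 and 2 (adjusted p 0.092 to 0.254), and in DESeq2 (0.353).

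Chmp5, a regulatory subunit gene, was next, at 84.0, 85.3 and 88.4 CPM in control and 97.8, 90.6 and 98.8 CPM after 4-OHT. The groups did not overlap but the test missed the threshold (log2 fold change 0.16, SE 0.06, adjusted p = 0.065). It passed with library totals alone as the scaling (0.044) and without 4-OHT replicate 2 (0.039).

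The main filament subunit Chmp4b had a log2 fold change of 0.09 (95% interval -0.002 to 0.19). Chmp3 and Chmp2a, further ESCRT-III subunit genes, had 0.07 and 0.04, and Chmp6, which nucleates Chmp4 filaments, had 0.10. Chmp7, which recruits ESCRT-III to the reforming nuclear envelope, had 0.12, and Ist1, a subunit linked to VPS4 and spastin, had 0.05. Of these 6 uncalled genes, only Chmp7 had control and 4-OHT libraries that did not overlap, where 12.1% of all genes were apart upward. Single libraries moved several of these values: Chmp6 was at 0.02 without 4-OHT replicate 1, Ist1 at 0.01 without control replicate 1 and Chmp3 at 0.03 without 4-OHT replicate 3.

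The recruiters and the enzymes were uncalled too. Tsg101, the ESCRT-I gene, was at 52.4 to 54.8 CPM in control and 57.2 to 61.7 CPM after 4-OHT, without overlap (log2 fold change 0.14, adjusted p = 0.227), and Pdcd6ip, which encodes ALIX, had a log2 fold change of 0.04. Tsg101 shares 3105 bases of its span with Uevld in the RefSeq annotation. The ATPase genes Vps4a and Vps4b each had a log2 fold change of 0.05, the cofactor gene Vta1 had 0.17 (95% interval -0.01 to 0.34), and Spast, which encodes the microtubule-severing spastin, had 0.005 (-0.15 to 0.16). The reads of Chmp1a, 0 in every library, allow a level of up to 0.507 to 0.512 CPM, from counting error only. Other genes of the same machineries, Myl12a, Myl12b and Vps25, were also listed at 0, so these zeros are not read as absence of the RNA.

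Related genes were also compared with each other inside each library, which removes any effect of scaling. The comparison uses the same reads as the values above and is not separate support for the calls. Of 8 pairs planned, 7 could be computed, since Chmp1a had no reads. The log2 read ratio of Sept6 to Sept11 was -2.99, -2.99 and -3.08 in control and -2.60, -2.85 and -2.57 after 4-OHT. It rose by 0.35 with no overlap (exact permutation p = 0.1, two-sided, adjusted over 7 pairs 0.35), where 0.1 is the smallest p that 3 against 3 libraries allow. The ratio of Myh9 to Myh10 rose by 0.09, also without overlap (exact permutation p = 0.1, adjusted 0.35). Differences for the remaining pairs overlapped between groups, at -0.17 for Chmp4b over Chmp4c, -0.14 for Chmp2a over Chmp2b, -0.03 for Rock1 over Rock2, -0.02 for Sept2 over Sept7 and -0.001 for Vps4a over Vps4b (exact permutation p = 0.2 to 0.9).

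**Figure D3:**
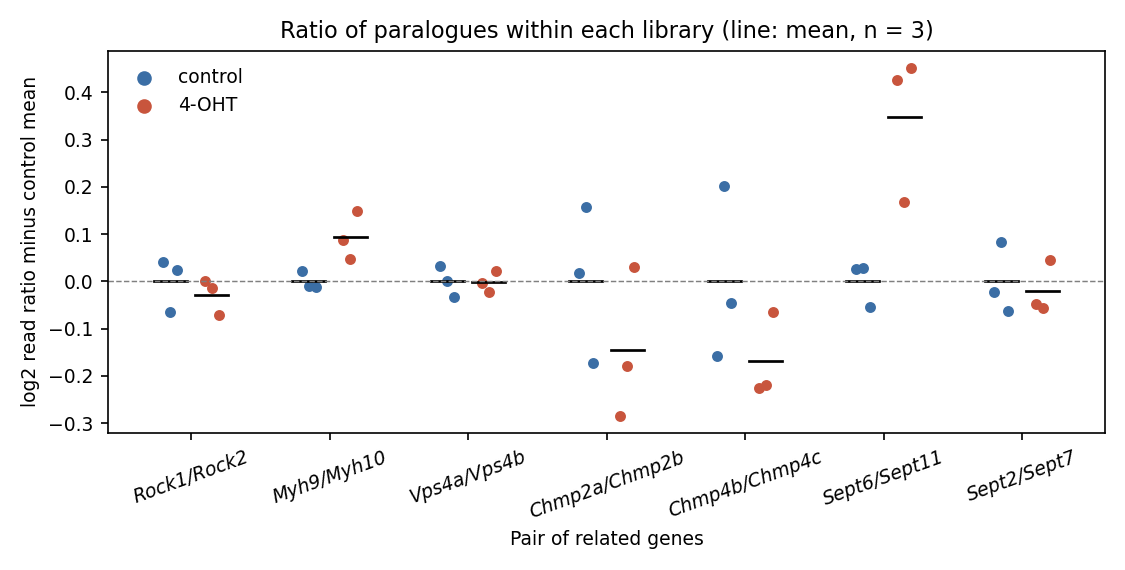
Log2 ratio of the reads of paired genes in each library, minus the control mean of the pair (y axis), for 7 pairs (x axis), with control in blue, 4-OHT in red and lines at the means of 3 libraries. Sept6/Sept11 and Myh9/Myh10 are the pairs whose groups do not overlap.

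The steps around the ring and the ESCRT filament were taken from 5 lists of genes outside the 36, chosen with earlier results of these data known. Beside the calls in each list, edgeR called 5.17% of all genes lower and 4.61% higher. All 11 genes of the central spindle and the chromosomal passenger complex were lower (median log2 fold change -0.56, range -1.36 to -0.27), with Plk1, the kinase that licenses ECT2 binding to centralspindlin, at -1.36 (SE 0.07), Prc1, the microtubule bundler, at -0.94 (SE 0.05), and Kif23 as given above. Of the ring scaffold genes, only Racgap1, Cep55 and Cit had falls as large as the smallest in this list.

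Of 17 other genes of RhoA control and actomyosin 14 were tested (median 0.08). Of the 14, 1 was lower and 3 higher, where 5.17% and 4.61% of all genes were. Arhgap11a, a GTPase-activating protein gene for RhoA, was at 158 ± 1.99 CPM in control and fell to 121 ± 8.26 CPM (-0.38 ± 0.05 SE on the log2 scale, adjusted p = 1.0e-09 by edgeR). Ppp1cb, the catalytic subunit of myosin phosphatase, was at 253, 250.2 and 247 CPM in control and rose to 274, 267 and 289 CPM (0.15, SE 0.04), and Cfl1, the actin-severing cofilin, from 880.0 ± 21.7 to 948 ± 2.06 CPM (0.11, SE 0.03). Rhoc, a close relative of Rhoa also rose, by 0.22 on the log2 scale (SE 0.06), and was singled out here with its value known. Ppp1cb missed the threshold once 4-OHT replicate 3 was left out (adjusted p = 0.069) and in DESeq2 (0.090). Left-out libraries also ended the Cfl1 call without control replicate 3 (0.091), and the Rhoc call without control replicate 3, 4-OHT replicate 2 or 4-OHT replicate 3 (0.054 to 0.099) and in DESeq2 (0.197).

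Of 14 upstream ESCRT genes 12 were tested (median 0.02). Of the 12, 0 were lower at an unadjusted p under 0.05 by edgeR, where 10.5% of all genes were. At the adjusted threshold 0 were lower (5.17% of all genes) and 2 were higher (4.61%). They were Stam (log2 fold change 0.19, SE 0.06) and Hgs (0.16, SE 0.05), which encode subunits of the ESCRT-0 complex that sorts ubiquitinated cargo at endosomes. Of 10 ESCRT-III partners and abscission timing genes 8 were tested, and Ptpn23, an ALIX relative, was the 1 call (0.18, SE 0.06). None of the 3 was called by DESeq2 (adjusted p = 0.234 for Stam, 0.303 for Hgs and 0.298 for Ptpn23). Left-out libraries ended the Stam call (control replicate 2, 0.197), the Hgs call (control replicates 1 and 3 and 4-OHT replicate 3, 0.096 to 0.171) and the Ptpn23 call (control replicates 1 and 3 and 4-OHT replicates 1 and 2, 0.077 to 0.152). Of 6 other septins, Sept5 alone was tested and was uncalled (7.14 ± 0.766 and 7.68 ± 0.402 CPM).

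**Figure D4:**
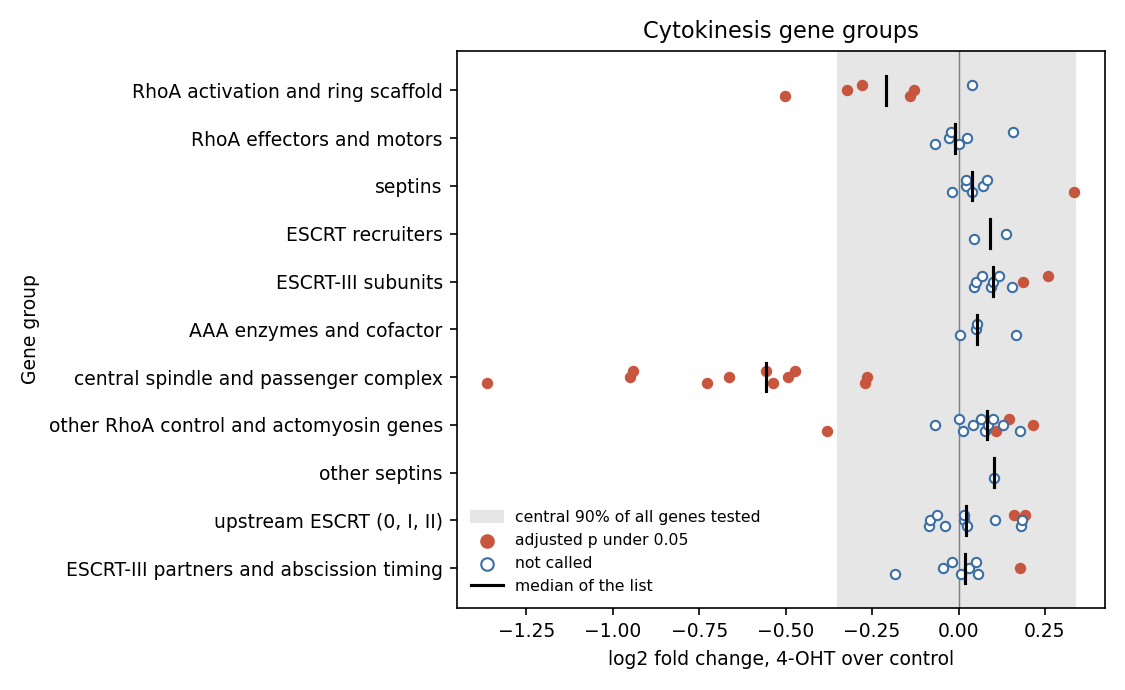
Log2 fold change of 4-OHT over control (x axis) of every tested gene in the groups of members and the lists around them (y axis), filled where the edgeR adjusted p was under 0.05, with the median of each group as a black line and the central 90% of all genes tested shaded. The central spindle list lies left of 0 throughout, the ring scaffold lies left of 0 except Shcbp1, and the ESCRT groups among the members lie right of 0. Most septins and most other genes of RhoA control and actomyosin also lie right of 0.

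The authors' deposited table lists 34 of the members and gives an FDR under 0.05 to 5 lower and 3 higher members. In the authors' deposited table the values are -0.50 for Racgap1, -0.33 for Cep55, -0.28 for Cit, -0.14 for Ect2, -0.13 for Anln, 0.33 for Sept6, 0.18 for Chmp2b and 0.25 for Chmp4c, all log2 fold changes. No member differed by more than 0.0032 on the log2 scale between that table and the fit used here.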

How the data were processed

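The authors deposited raw counts, whole numbers of reads for each Ensembl gene. The authors' deposited comparison holds log2 values (fold change and mean CPM), p-values and FDR, per the file headers. Per the submitters' processing notes the tools included edgeR, bedtools 2.26.0, TopHat2 2.1.0, Bowtie2 and Bowtie 1.1.2, without roles. No source used here gives the counter, the annotation release or the use of strand, so reads of overlapping or antisense genes cannot be told apart.

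Repeated lines (27) were kept once, leaving 38924 IDs. The test used edgeR 4.0.16 (R 4.3.3): filterByExpr (minimum count 10, minimum total 15) left 13355 genes, TMM factors were 0.994 to 1.01, and groups were compared by the robust quasi-likelihood F test, two-sided, with Benjamini-Hochberg adjustment over all genes and a threshold of 0.05. No replicates were merged. Between replicates of a group the chi-square over genes was 1.26 to 1.48 for each degree of freedom. That value cannot tell separate cultures from technical replicates. On simulated counts for 13217 genes, the procedure recovered 70% of genes changed 1.25-fold and 98% changed 1.5-fold (50 each, mean count at least 50), and 3 of 13017 unchanged genes were called. Every simulated gene was given the same common dispersion (0.00066), with no difference in spread between genes. These figures may therefore be too favourable for the real counts. Of the 8 called members, 5 moved by less than 1.25-fold.

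Alternatives were RLE size factors, library totals, other filters, DESeq2 1.42.0, limma-voom (limma 3.58.1), leaving out each library and a replicate block. DESeq2 was run without the filterByExpr step, so test and filter changed together there. Members and lists were chosen with earlier results of these data known. Named genes were all members, Lin9, and per list the 3 called genes with the smallest p, or the gene of highest mean CPM where none was called.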

Additional observations from a re-analysis of the deposited data

How the results depend on the processing

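With DESeq2, 2 members were called lower and 0 higher, and 350 of all genes lower and 174 higher (691 and 616 with edgeR); all 524 DESeq2 calls were edgeR calls too, and the cause was not tested. Leaving out single libraries gave 3 to 5 members lower (3 without control replicate 3 or 4-OHT replicate 2) and 2 to 3 higher, with 508 to 643 of all genes lower and 403 to 542 higher (403 without control replicate 1), from fewer samples. The labels do not tie replicate numbers to shared cultures: deviations of same-numbered libraries correlated at -0.056 to 0.039, and 2 of 6 libraries correlated best with their own number. With the replicate block 5 members were lower and 3 higher. Of the 26 uncalled members, 22 moved by over 1.5 times when some 1 library was left out (all but Tsg101, Pdcd6ip, Chmp5 and Chmp7), and uncalled values near 0 changed sign. Rock2 was at -0.0014 with RLE factors, -0.00080 with no filter, -0.0029 with DESeq2 and between -0.0061 and 0.012 without single libraries. Without single libraries the log2 fold changes ran from -0.021 to 0.10 for Shcbp1, -0.049 to 0.012 for Rhoa, -0.00028 to 0.042 for Myh9, -0.038 to 0.10 for Sept10, -0.059 to 0.13 for Chmp2a and -0.026 to 0.055 for Spast. The change in the log2 ratio of Vps4a to Vps4b ran from -0.018 to 0.015 and that of Sept2 to Sept7 from -0.052 to 0.022. Depth limits the members with fewest reads, whose standard errors reached 0.09.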
